A study of Mus musculus with 10 samples.

Results

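The 2 clonal *Dnttip1* knockout (KO) lines of mouse embryonic stem cells (mESCs), D2A7 and D1E6, were compared with each other by RNA-seq. Their 4 libraries, 2 per clone, were picked by the clone codes in the library names and belong to a set of 10. The other libraries are 2 of wild-type (WT) cells and 2 each of the *Elmsan1* KO clones E2E8 and E2G7. All lines derive from male C57/BL6 Bruce-4 mESCs, and total RNA was sequenced as stranded paired-end libraries after removal of ribosomal RNA. Both *Dnttip1* KO clones were made with CRISPR/Cas9 and a single guide RNA, grown from single sorted cells, and cultured like the WT cells in 2iL medium, which holds an inhibitor of the kinase MEK, an inhibitor of the kinase GSK3β and the cytokine LIF. The sample labels number D2A7 as the first and D1E6 as the second *Dnttip1* KO, whereas the series' design text numbers them the other way round, so the clones are called here by their codes. Each clone is 1 line, the WT cells are not stated to have been cloned, and the study calls the 2 libraries of a clone biological replicates without saying whether they were separate cultures. The p-values therefore measure only the spread between these libraries, which may be partly technical, and a difference between the clones is a difference between 2 lines that share the targeted gene.

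DNTTIP1 is a scaffold protein of the mitotic deacetylase complex (MiDAC), in which it is joined by ELMSAN1 and, in humans, by the histone deacetylases HDAC1 and HDAC2. In these mESCs the study found HDAC1, but not HDAC2, bound to DNTTIP1 and ELMSAN1. The complex removes acetyl groups from histones, and DNTTIP1 forms a dimer that holds the deacetylases together. mESCs in 2iL medium stay in the naive state of pluripotency because inhibition of MEK silences the ERK branch of FGF signalling, while inhibition of GSK3β keeps the WNT branch active.

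The guide RNA against *Dnttip1* matched the sequence of its chromosome exactly at 1 place that is followed by a PAM, the bases Cas9 requires directly after a target. The genome build is NCBIM37, that of the data. The match is shown because D2A7 and D1E6 were both cut at this same site, unlike the WT and *Elmsan1* KO lines, and the capitals mark the PAM.
Dnttip1 target site (chr2:164572230-164572252, + strand): acatcggcaggtgcagcgaaGGG
The site lies in exon 2 of the 13 exons of the transcript Dnttip1-001, a coding exon from position 164572207 to 164572277, and *Dnttip1* itself spans chr2:164571483-164594107 on the same strand. *Dnttip1* was measured at 4.57 and 4.55 FPKM in D2A7, at 2.58 and 2.6 FPKM in D1E6 and at 8.45 and 8.35 FPKM in WT. FPKM are fragments scaled to the length of the exons and to the size of the library, rescaled here between libraries. Both clones thus lay below WT in every library, with D1E6 lowest, and the clones did not overlap. The log2 difference of D2A7 minus D1E6 was 0.80 ± 0.05 (SE, limma adjusted p = 0.000951, n = 2 libraries per clone), a 1.74-fold higher level in D2A7, beside log2 differences from WT of −0.87 in D2A7 and −1.66 in D1E6. The FPKM count fragments over all exons and do not show what the cut left of the reading frame. The study reports that the indels in its *Dnttip1* KO clones led to a premature stop codon. By western blot it found no DNTTIP1 protein in either clone, so the RNA levels do not stand for protein. *Dnttip1* overlaps a predicted gene on the opposite strand, *Gm11457*, and an annotated 7SK copy.

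Of the other MiDAC subunits, *Hdac1* was at 52.8 and 50.6 FPKM in D2A7 and at 50.7 and 51.2 FPKM in D1E6, and *Elmsan1*, listed as *C130039O16Rik*, at 7.78 and 8.67 FPKM against 8.61 and 8.44 FPKM, so that neither separated the clones. *Hdac2* was higher in both D2A7 libraries, at 55.6 and 54.9 FPKM against 43.6 and 44.2 FPKM, with a log2 difference of 0.33 ± 0.03 (SE), below the size called here. *Trerf1*, a paralogue of *Elmsan1*, was at 0.803 and 0.975 FPKM in D2A7, at 1.56 and 1.48 FPKM in D1E6 and at 0.462 and 0.558 FPKM in WT, so both clones lay above WT and D1E6 above D2A7. Its log2 difference of −0.72 ± 0.12 (SE, adjusted p = 0.0108) passed the threshold, but not without D1E6 replicate 1 (−0.68) or without D1E6 replicate 2 (−0.75). *Zfp541*, a relative expressed in germ cells, was too low to be tested.

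The 4 clone libraries held from 48262654 to 62336055 fragments each, recovered from the FPKM, and had no value in 37.4% to 40.3% of the 34591 genes. Between the 2 libraries of a clone, the median absolute log2 difference of 12241 genes (those averaging 1 FPKM or more) was 0.0620 in D2A7 and 0.0507 in D1E6, against 0.177 between the clone means. The markers of mESCs were high in all 4 libraries, with *Pou5f1* from 268 to 318 FPKM, *Nanog* from 275 to 291 FPKM and *Sox2* from 138 to 148 FPKM. Of the markers of other cell types, some were at or near 0, namely *Col1a1* and *Col1a2* of fibroblasts (at most 0.103 FPKM), *Gata6* and *Sox17* of endoderm (at most 0.112 FPKM), *Elf5* and *Hand1* of trophoblast (at most 0.0207 FPKM) and *Pax6* of neural cells (at most 0.0237 FPKM). Others were measured above 0, such as *Gata4* of endoderm (0.343 to 0.950 FPKM), *Krt18* of trophoblast (5.03 to 11.5 FPKM) and *Nefl* of neurons (2.98 to 10.9 FPKM), and their differences are given with their lists. In RNA from whole cultures, fewer cells of a type and less RNA per cell cannot be told apart.

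The clones differed in the expression of 2198 of the 16991 genes tested. A gene was called when its fold change was at least 1.5 and its unadjusted p in limma was under 0.01, the rule that the study used. By this rule, 1564 genes were higher in D2A7 (9.2% of those tested) and 634 were lower (3.73%), so that 71.2% of the called genes were higher in D2A7. With an adjusted p below 0.05 as the only criterion, 3962 genes were higher (23.3%) and 2963 lower (17.4%). At an unadjusted p under 0.05 there were 8636 genes (50.8%), of which 4918 were higher (28.9% of those tested) and 3718 lower (21.9%). Counts of list members below are to be read against these shares, and no list was tested as a group. Every gene called by fold change and p also had an adjusted p under 0.05. The genes higher in D2A7 had a median fold change of 1.98, and 108 of them differed by at least 4-fold, whereas the genes lower in D2A7 had a median fold change of 1.70 and 13 differed by at least 4-fold. The split between the directions depended on the scaling, since quantile normalization gave 1154 higher and 956 lower genes, 54.7% of them higher.

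**Figure D1:**
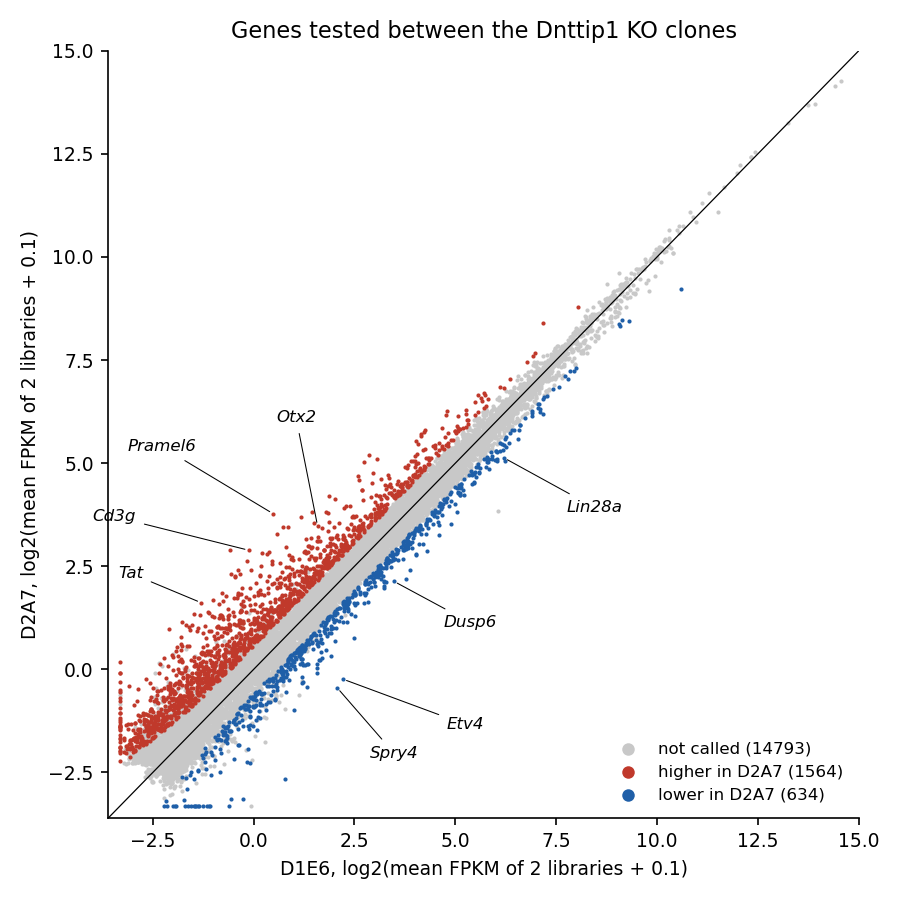
Expression of the 16991 tested genes in D1E6 (x axis) and D2A7 (y axis), as log2 of the mean FPKM of 2 libraries plus 0.1. Red points are the 1564 genes higher in D2A7 and blue points the 634 genes lower in D2A7, the line marks equal levels, and the red points are spread most widely at low levels.

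Against WT, whose 2 libraries both comparisons share, D2A7 had 1667 genes higher (9.75% of 17101 tested) and 846 lower (4.95%), and D1E6 had 733 higher (4.39% of 16685) and 874 lower (5.24%). Genes of low and moderate expression made up most of the genes higher in D2A7 than in D1E6. Of the genes with a mean of 0.5 to 1 FPKM over the 4 clone libraries, 19% were higher in D2A7 and 5.24% lower, whereas of those at 50 FPKM or more 1.81% were higher and 3.20% lower. Of the 1564 higher genes, 673 (43.0%) had a mean under 1 FPKM, and 32 had no fragment in either D1E6 library. The corresponding numbers among the 634 lower genes were 156 (24.6%) with a mean under 1 FPKM and 18 with no fragment in either D2A7 library.

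**Figure D2:**
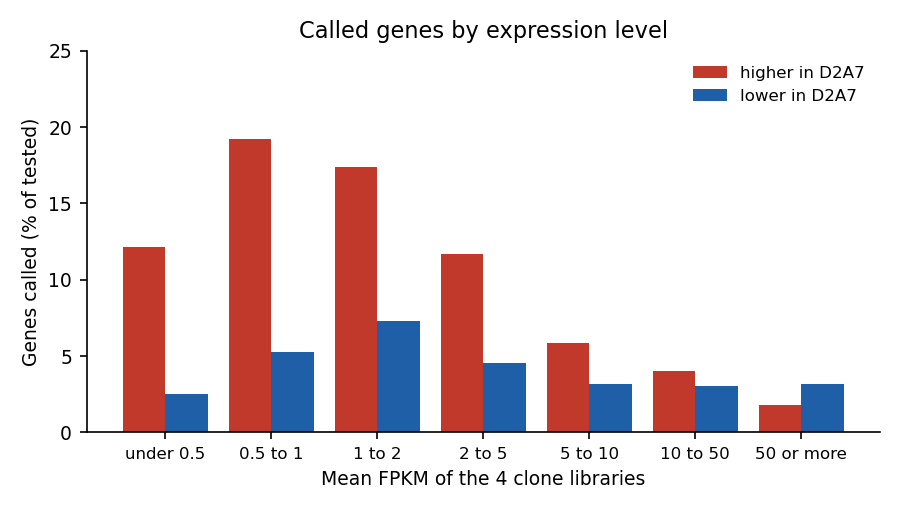
Share of the tested genes called higher (red) or lower (blue) in D2A7 than in D1E6, in percent, by the mean FPKM of the 4 clone libraries. The share higher in D2A7 was 19% at 0.5 to 1 FPKM and 1.81% at 50 FPKM or more, where the share lower was 3.20%.

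The genes lower in D2A7 were concentrated on chromosome 6. The 520 genes of chromosome 6 with at least 1 FPKM in all 4 clone libraries had a median log2 difference of −0.49, a ratio of 0.714, and 444 of them (85.4%) were below 0. The 10950 such genes on the other chromosomes had a median of 0.02, and no other chromosome with 20 or more such genes had a median further from 0 than that of the mitochondrial genome (0.09). Set beside WT, the median of chromosome 6 was −0.08 in D2A7 and 0.42 in D1E6, a ratio of 1.34, so that it was D1E6 that stood apart from WT. All 11 windows of 10 Mb that held at least 20 such genes had medians below 0, from −0.55 to −0.41. In D1E6 against WT these windows ran from 0.31 to 0.51, and in D2A7 against WT from −0.18 to 0.02, so the difference spanned the windows of the chromosome that could be measured.

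Of the 771 genes tested on chromosome 6, 212 were lower in D2A7 (27.5%) and 32 were higher, and the 212 made up 33.4% of all the genes lower in D2A7. Elsewhere, 422 genes were lower (2.6%). The chromosome carried 15 of the 21 genes lower in D2A7 that had a mean of at least 100 FPKM. The most abundant of these was *Trh*, the precursor of thyrotropin-releasing hormone, at 569 and 624 FPKM in D2A7, 1588 and 1516 FPKM in D1E6 and 663 and 649 FPKM in WT. Both D1E6 libraries lay above all D2A7 and WT libraries, and the log2 difference was −1.38 ± 0.07 (SE, adjusted p = 0.000516). None of the 6 genes higher in D2A7 at this level was on chromosome 6, and the one with the largest difference was *Psap*, which encodes the precursor of the lysosomal saposins, at 337 and 335 FPKM against 146 and 143 FPKM (1.22 ± 0.03, adjusted p = 0.000442). *Trh* and *Psap* were chosen after their values were seen. Chromosome 8, by contrast, had a median of 0.36 above WT in each clone and 0.01 between them. DNA copy number was not measured in these libraries, and its part in these values was not tested.

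**Figure D3:**
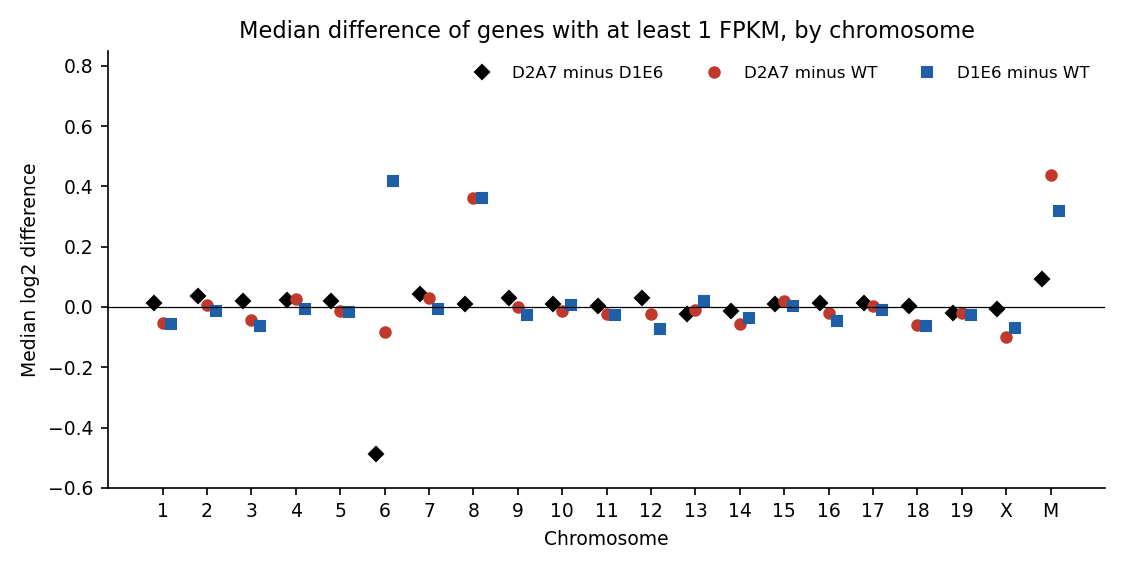
Median log2 difference of the genes with at least 1 FPKM on each chromosome (x axis), for D2A7 minus D1E6 (black diamonds), D2A7 minus WT (red circles) and D1E6 minus WT (blue squares). Chromosome 6 stands at −0.49 between the clones and 0.42 in D1E6 against WT, and chromosome 8 at 0.36 against WT in both clones.

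The 12 largest differences among genes higher in D2A7 and a mean of 1 FPKM or more were from 2.73 to 3.52 on the log2 scale. They belonged to *Gm11800*, *Pramel6*, *Cd3g*, *Cd3d*, *Tat*, *Ly6a*, *Gm12790*, *Aox3*, *Fbp2*, *Ffar2*, *Slc24a5* and *Khdc1c*, among them genes that are known for expression in oocytes and early embryos (*Pramel6*, *Khdc1c*), in T lymphocytes (*Cd3g*, *Cd3d*) and in liver (*Tat*, *Aox3*). *Pramel6* (chr2:87346722-87351029, + strand, NCBIM37), which is known for its expression in the inner cell mass of the blastocyst, was at 14.1 and 13 FPKM in D2A7, at 1.13 and 1.47 FPKM in D1E6 and at 0.208 and 0.464 FPKM in WT. Both clones lay above WT and D2A7 above D1E6, with a log2 difference of 3.30 ± 0.13 (SE, adjusted p = 0.000473) between the clones. *Cd3g*, a chain of the T cell receptor complex, was at 7.95 and 6.65 FPKM in D2A7, at 0.713 and 0.932 FPKM in D1E6 and at 0.748 and 0.610 FPKM in WT, so that D2A7 alone stood apart (3.01 ± 0.15, adjusted p = 0.000553). *Tat*, tyrosine aminotransferase, showed the same order with 3.04 and 2.89 FPKM in D2A7, 0.352 and 0.263 FPKM in D1E6 and 0.208 and 0.206 FPKM in WT (2.92 ± 0.14, adjusted p = 0.000516). *Slc24a5*, a cation exchanger of pigment cells, had the reverse relation to WT, with 10.9 and 10.9 FPKM in D2A7 and 9.67 and 9.77 FPKM in WT against 1.42 and 1.69 FPKM in D1E6 (2.74 ± 0.09, adjusted p = 0.000442), and here D1E6 alone stood apart. It overlaps *Myef2* on the opposite strand. Of the 12 genes, *Slc24a5* was the only one not called between D2A7 and WT, and 3 (*Fbp2*, *Ffar2* and *Slc24a5*) were lower in D1E6 than in WT.

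**Figure D4:**
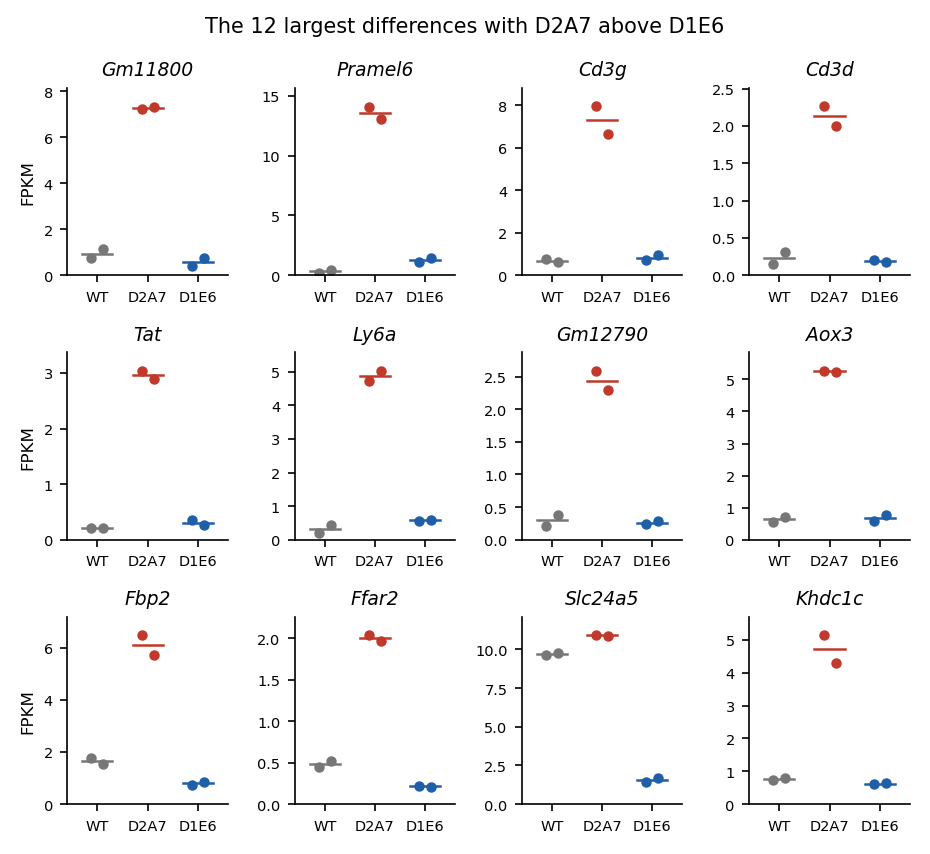
FPKM (linear axes that start at 0) of the 12 genes with the largest differences higher in D2A7, in the 2 libraries each of WT, D2A7 and D1E6. Each point is a library and each line the mean of 2, and both D2A7 libraries lie above both D1E6 libraries for every gene, while the WT libraries of *Slc24a5* lie with D2A7.

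Several of these genes lay beside others that were also higher in D2A7. Within 50 kb of the 12 genes there were 22 tested neighbours, each counted once and the 12 themselves left out. Of these, 11 were higher in D2A7 (50.0%), against 9.24% of all tested genes with a position. The share among the 17 protein-coding neighbours was 10, or 58.8%. Around the 12 genes with the largest differences in the other direction, 4 of 15 protein-coding neighbours were also lower in D2A7 (26.7%, against 4.01% of those tested). The 4 include *Erc1* (−0.76) and *Fbxl14* (−0.64), which lie beside *Wnt5b* on chromosome 6. On that chromosome 27.5% of all tested genes were lower, so the share of 4.01% is not a fair measure for them. Among neighbours of all gene types there, 9 of 136 were lower (6.62%, against 3.76%) and 4 were higher. *Cd3g* and *Cd3d*, which lie 1362 bases apart and are both among the 12, were joined by *Cd3e* (1.38 ± 0.10). *Pramel7*, 9472 bases from *Pramel6*, was at 5.47 and 5.03 FPKM in D2A7 and at 0.831 and 0.890 FPKM in D1E6 (2.48 ± 0.08). *Khdc1a* (2.70 ± 0.09) and *Khdc1b* (1.23 ± 0.29) lay beside *Khdc1c*, *Ffar3* (1.97 ± 0.13) beside *Ffar2*, and *Ly6c1* (1.87 ± 0.19) beside *Ly6a*. Members of such families resemble each other in sequence, and fragments that fit several of them could have been divided between them in the counting. These neighbours were named after their values were seen.

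The bases before the start sites of the genes higher in D2A7 held fewer CpG dinucleotides, the sites of DNA methylation, than those of tested genes as a whole. RefSeq promoters (GRCm38.p6) were matched for 9989 of the 16991 tested genes. In the 250 bases before the start site, the median number of CpGs was 15.5 over these genes, 10 over the 919 matched genes higher in D2A7 and 14 over the 397 matched genes lower in D2A7. Since genes of low expression have fewer CpGs, the same was set out by level. Among genes with a mean under 1 FPKM the medians were 10, 8 and 10.5, from 1 to 10 FPKM 15.3, 11 and 13, and from 10 FPKM upwards 18, 12.5 and 16. The lower genes outside chromosome 6 had medians of 11, 12 and 14.5 at these levels and 12.5 over all levels, so those above 1 FPKM also lay below the tested genes. Both ends of the range are shown by 4 promoters, each as the 250 bases before the start site on the coding strand and with the CpGs in capitals. *Pramel6* and *Cd3d* are among the 12 genes, *Dazl* is a germline gene higher in D2A7, and *Dusp6* is an ERK target lower in D2A7.
Pramel6 promoter (chr2:87506315-87506564, + strand): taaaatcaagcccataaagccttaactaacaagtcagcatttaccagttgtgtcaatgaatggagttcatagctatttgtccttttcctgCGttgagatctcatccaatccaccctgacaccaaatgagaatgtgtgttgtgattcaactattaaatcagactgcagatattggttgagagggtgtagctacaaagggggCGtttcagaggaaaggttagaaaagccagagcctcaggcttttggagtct
Cd3d promoter (chr9:44981536-44981785, + strand): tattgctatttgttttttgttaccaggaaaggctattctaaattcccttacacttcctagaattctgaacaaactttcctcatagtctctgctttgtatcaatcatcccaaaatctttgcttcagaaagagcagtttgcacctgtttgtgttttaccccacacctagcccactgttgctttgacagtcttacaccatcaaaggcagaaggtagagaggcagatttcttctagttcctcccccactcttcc
Dazl promoter (chr17:50293621-50293870, - strand): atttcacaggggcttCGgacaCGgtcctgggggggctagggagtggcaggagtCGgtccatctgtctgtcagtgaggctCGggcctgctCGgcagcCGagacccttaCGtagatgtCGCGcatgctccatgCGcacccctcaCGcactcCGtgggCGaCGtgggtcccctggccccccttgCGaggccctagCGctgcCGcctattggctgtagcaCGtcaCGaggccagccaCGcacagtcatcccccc
Dusp6 promoter (chr10:99262981-99263230, + strand): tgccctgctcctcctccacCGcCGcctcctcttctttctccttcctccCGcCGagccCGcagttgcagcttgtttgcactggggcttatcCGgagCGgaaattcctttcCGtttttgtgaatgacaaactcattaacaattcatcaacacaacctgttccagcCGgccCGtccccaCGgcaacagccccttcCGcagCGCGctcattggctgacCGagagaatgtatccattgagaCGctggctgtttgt
These hold 2, 0, 20 and 16 CpGs, so *Dazl* was higher in D2A7 with a promoter rich in CpGs. DNA methylation was not measured in these libraries.

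Among the genes lower in D2A7, the 12 largest differences with a mean of 1 FPKM or more were from −2.51 to −1.47. They included those of *Spry4*, *Etv4*, *Mir467a-4*, *Slc39a14*, *Wdr86*, *Gadd45a*, *Wnt5b*, *Mir467a-9*, *Adam23*, *2810011L19Rik* and *A430104N18Rik*, of which *Gadd45a* and *Wnt5b* are on chromosome 6. *Slc39a14*, a zinc and iron importer, was at 1.61 and 1.60 FPKM in D2A7, at 5.38 and 5.57 FPKM in D1E6 and at 2.34 and 2.41 FPKM in WT (−1.71 ± 0.06, adjusted p = 0.000443). *Gadd45a*, a gene induced by DNA damage, was at 4.43 and 4.44 FPKM in D2A7 against 13.6 and 13.4 FPKM in D1E6 and 12.2 and 13.8 FPKM in WT (−1.58 ± 0.04, adjusted p = 0.000442). Here D2A7 stood apart from both D1E6 and WT, unlike the chromosome as a whole. With the genes of chromosome 6 centred on their own median, its log2 difference was −1.09. *Mir467a-4* and *Mir467a-9* are near-identical copies in an intron of *Sfmbt2*, and *A430104N18Rik* overlaps *Mir142*, so their values are uncertain. The 2 microRNA genes lost the call without D1E6 replicate 1 (−1.61 and −1.38), and *Mir467a-4* also without D2A7 replicate 2 (−1.50). Both also lost it by voom (−1.96 and −1.53), in a fit without the variance trend and in a single fit of all 10 libraries, and *Mir467a-4* without the filter on low values.

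Several targets and feedback inhibitors of ERK signalling were lower in D2A7 than in D1E6, while the list as a whole did not lie below WT in either clone. Of the 21 tested genes of the ERK list, 7 were lower in D2A7 (33.3%, against 3.73% of all genes tested), 14 were not called and 0 were higher, with a median log2 difference of −0.28 over the list against 0.04 over all genes tested. At an unadjusted p under 0.05 in limma, 11 were lower and 2 higher, where 21.9% and 28.9% of all genes were, and voom on the recovered fragments also gave 7 and 0. None of the 7 is on chromosome 6. Against WT, 5 of the 21 were higher in D2A7 and 1 lower, with a median of 0.26. In D1E6 against the same WT libraries, 10 were higher and 0 lower, with a median of 0.57. Of all genes, 9.75% were higher and 4.95% lower in D2A7 than in WT, and 4.39% and 5.24% in D1E6. *Spry4*, a Sprouty protein that inhibits signalling from receptor tyrosine kinases, was at 0.635 and 0.638 FPKM in D2A7, at 4.06 and 4.12 FPKM in D1E6 and at 0.443 and 0.393 FPKM in WT. The D2A7 libraries lay somewhat above WT and both D1E6 libraries far above. The log2 difference of −2.51 ± 0.08 (SE, adjusted p = 0.000442) was the largest of the list. *Etv4* (chr11:101631056-101646685, − strand), an ETS transcription factor, gave the same order with 0.684 and 0.816 FPKM in D2A7, 4.27 and 4.75 FPKM in D1E6 and 0.515 and 0.648 FPKM in WT (−2.44 ± 0.11, adjusted p = 0.000511). *Dusp6* (chr10:98725865-98730122, + strand), the phosphatase that removes the activating phosphates from ERK, was at 4.15 and 4.46 FPKM, 11.3 and 10.7 FPKM, and 5.29 and 4.55 FPKM in D2A7, D1E6 and WT (−1.33 ± 0.06, adjusted p = 0.000488).

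The other ERK genes lower in D2A7 were *Dusp4*, a nuclear phosphatase of ERK (−1.11 ± 0.08), *Myc* (−0.90 ± 0.13), *Spry1* (−0.89 ± 0.09) and *Spred1*, another inhibitor of the pathway (−0.62 ± 0.05). Their levels in D2A7 were 0.957 and 1.01 FPKM for *Dusp4*, 0.852 and 1.07 FPKM for *Myc*, 2.14 and 2.49 FPKM for *Spry1* and 5.07 and 4.82 FPKM for *Spred1*, none of which was called against WT, whereas *Dusp4*, *Myc* and *Spry1* were higher in D1E6 than in WT. *Etv5* (−0.27), *Ccnd1* (−0.44), *Dusp5* (−0.06) and *Fos* (0.26) were not called between the clones. With a pseudocount of 1 FPKM, 5 genes of the list were lower. The exact letters CCGGAA, 1 form of the motif of ETS factors, were searched on both strands of the 250 bases before the start sites. They were found in 0 of the 14 tested genes of the list with a promoter entry. The share was 13.6% of all 27025 promoters and 24.4% of those of tested genes. Only 3 of the 7 lower genes had an entry. Other forms of the motif were not searched, so the count does not show whether these promoters hold ETS sites.

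**Figure D5:**
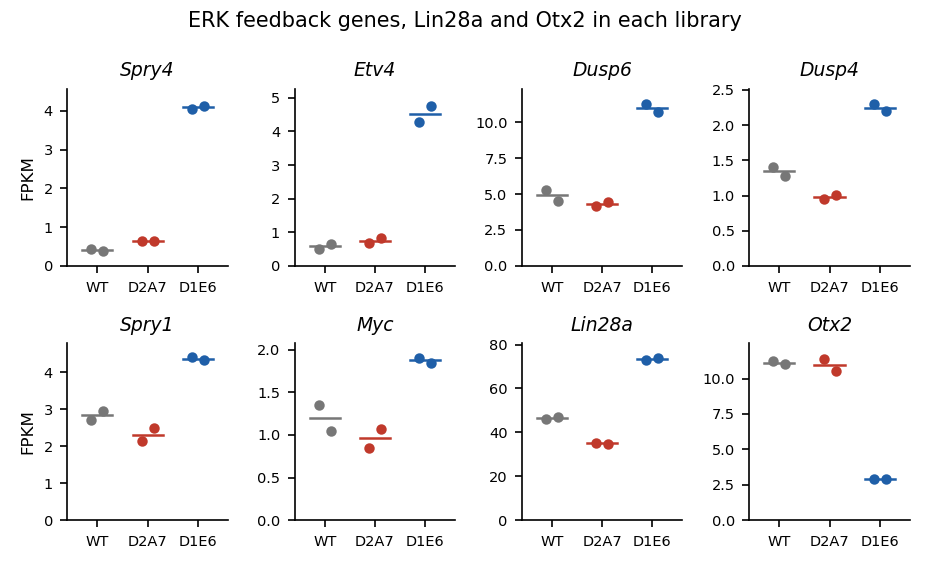
FPKM of 8 genes in the 2 libraries each of WT, D2A7 and D1E6, on linear axes, with points for libraries and a line for the mean. *Spry4*, *Etv4*, *Dusp6*, *Dusp4*, *Spry1*, *Myc* and *Lin28a* are highest in D1E6, and *Otx2* lies between 10.5 and 11.4 FPKM in WT and D2A7 and at 2.92 and 2.89 FPKM in D1E6.

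Core pluripotency factors differed little, and several factors linked to the exit from naive pluripotency differed in both directions. *Sox2* (0.07 ± 0.03), *Pou5f1* (0.18 ± 0.05) and *Nanog* (−0.05 ± 0.03) were not called. *Nanog* lies on chromosome 6, and once the genes of that chromosome were centred it stood at 0.44 ± 0.04, also not called. Of the 18 tested genes of the core and primed list, 6 were lower in D2A7 (33.3%, against 3.73% of all genes) and 1 was higher (5.56%). The higher gene was *Otx2* (chr14:49277354-49287319, − strand), a homeobox factor of the primed epiblast, at 11.4 and 10.5 FPKM in D2A7, at 2.92 and 2.89 FPKM in D1E6 and at 11.2 and 11 FPKM in WT. D2A7 overlapped with WT and D1E6 stood below both, with a log2 difference of 1.88 ± 0.06 (SE, adjusted p = 0.000442) between the clones. *Lin28a*, an RNA-binding protein that blocks the maturation of let-7 microRNAs, was at 35.0 and 34.9 FPKM in D2A7, at 72.8 and 74.1 FPKM in D1E6 and at 46.1 and 46.9 FPKM in WT (−1.07 ± 0.03, adjusted p = 0.000442). Its paralogue *Lin28b* was at 1.44 and 1.44 FPKM against 2.90 and 2.81 FPKM (−0.94 ± 0.07). *Utf1* (−0.64 ± 0.07) and *Zic5* (−0.60 ± 0.07) were also lower, as was *Etv4*, which stands in both lists. Of these lower genes, *Etv4*, *Lin28a* and *Utf1* were higher in D1E6 than in WT, while *Lin28b* and *Zic5* were lower in D2A7 than in WT.

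Among the 20 genes of the naive list, 2 were higher in D2A7 (10%, near the 9.2% of all genes) and 0 lower. At an unadjusted p under 0.05 in limma, 13 were higher and 4 lower, where 28.9% and 21.9% of all genes were, and voom gave 2 and 0. *Tet2*, which oxidizes methylcytosine, was at 20.8 and 21.5 FPKM in D2A7, at 12.6 and 13 FPKM in D1E6 and at 17.3 and 17.6 FPKM in WT (0.72 ± 0.04, adjusted p = 0.000556). *Klf2* was at 113 and 114 FPKM against 72.9 and 75.6 FPKM (0.61 ± 0.03), and its difference fell under the fold threshold without D1E6 replicate 1 (0.58). *Zfp42* (0.27), *Klf4* (0.19) and *Esrrb* (0.03) were not called. Of the 17 genes of DNA methylation, *Tet2* was higher in D2A7, and *Dnmt3l*, the cofactor of the de novo methyltransferases, and *Mbd4*, a DNA glycosylase on chromosome 6, were lower. *Mbd4* stood at −0.62, and at −0.12 and not called once the genes of chromosome 6 were centred. The higher count was 2 without D2A7 replicate 1 or without D1E6 replicate 2. *Dnmt3l* was at 15.5 and 15.5 FPKM in D2A7, at 29.3 and 28.3 FPKM in D1E6 and at 5.95 and 6.38 FPKM in WT (−0.89 ± 0.03, adjusted p = 0.000473), so both clones lay above WT and D1E6 was highest. *Dnmt3l* overlaps *Aire* on the opposite strand.

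Genes of the germline and of meiosis differed in both directions. Of 29 tested, 10 were higher in D2A7 (34.5%, against 9.2% of all genes) and 2 lower (6.90%, against 3.73%), with a median of 0.22. *Dazl* (chr17:50418719-50432924, − strand), an RNA-binding protein of germ cells, was at 9.57 and 8.65 FPKM in D2A7, at 2.79 and 3.07 FPKM in D1E6 and at 4.46 and 4.85 FPKM in WT. The clones lay on opposite sides of WT, with a log2 difference of 1.60 ± 0.08 (SE, adjusted p = 0.000518) between them. The other higher genes were *Dpep3* (1.49), *Smc1b* (1.10), a meiotic cohesin subunit, *Mael* (1.00) of the piRNA pathway, *Zcwpw1* (1.00), a reader of histone methylation, *Dmc1* (0.94), the meiotic recombinase, *Tuba3a* (0.87), *Rec8* (0.73), another meiotic cohesin subunit, *Stk31* (0.73) and *Sycp3* (0.73), a protein of the synaptonemal complex. *Tuba3a* and *Stk31* lie on chromosome 6 and went against its median. The lower genes were *Piwil2*, at 1.89 and 1.99 FPKM against 3.29 and 3.25 FPKM (−0.72 ± 0.07), and *Hormad1*, at 9.05 and 9.23 FPKM against 13.9 and 14.1 FPKM (−0.61 ± 0.04). With a pseudocount of 1 FPKM, 5 genes were higher and 0 lower, and *Mael* lost the call without D2A7 replicate 1 (0.86). Several of these genes are low, from 0.0659 FPKM upwards, and the difference is understated for them on this scale.

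The E-box CACGTG, which is its own reverse complement, stood in the 250 bases before the start site of 11 of the 28 tested germline genes with a promoter entry (39.3%), beside 6.86% of all 27025 promoters and 9.81% of those of tested genes. Among the 10 germline genes higher in D2A7 there were 3 with the motif, *Mael*, *Stk31* and *Sycp3*. The promoter of *Sycp3*, in which the capitals mark the motif, is shown as the one of the 3 with 2 copies.
Sycp3 promoter (chr10:88459337-88459586, + strand): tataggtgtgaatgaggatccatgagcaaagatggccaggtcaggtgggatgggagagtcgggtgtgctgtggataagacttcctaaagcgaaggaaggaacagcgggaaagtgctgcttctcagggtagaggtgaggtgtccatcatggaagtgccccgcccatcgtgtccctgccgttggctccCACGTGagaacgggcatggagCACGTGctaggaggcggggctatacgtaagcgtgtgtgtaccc
The copy nearer to the start site begins 43 bases before it.

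Imprinted genes outside the *Dlk1*-*Dio3* locus differed in both directions, with 7 of 36 higher (19.4%) and 3 lower (8.33%), beside 9.2% and 3.73% of all genes. *Slc38a4*, a paternally expressed amino acid transporter, was at 10.9 and 10.6 FPKM in D2A7, at 1.34 and 2.05 FPKM in D1E6 and at 11.3 and 10.9 FPKM in WT, so that D1E6 alone stood apart (2.63 ± 0.19, adjusted p = 0.00118). *Grb10*, an adaptor that dampens insulin signalling, was at 5.30 and 5.27 FPKM in D2A7, at 2.36 and 2.29 FPKM in D1E6 and at 7.87 and 7.61 FPKM in WT (1.15 ± 0.05, adjusted p = 0.000516). *Gnas* (1.09), *Igf2* (0.81), *Igf2r* (0.66), *Igf2as* and *Phlda2* were also higher. All 3 lower genes, *Mest*, *Peg10* and *Sgce*, lie on chromosome 6. *Mest* was at 8.18 and 8.13 FPKM in D2A7, at 17.9 and 18.7 FPKM in D1E6 and at 22.5 and 23.5 FPKM in WT (−1.16 ± 0.04, adjusted p = 0.000442). *Peg10*, which derives from a retrotransposon, fell from 12.3 and 12.3 FPKM in WT to 0.764 and 0.693 FPKM in D1E6 and to 0.00965 and 0.0169 FPKM in D2A7 (−2.87 ± 0.17 between the clones, adjusted p = 0.000751). The lower count was 5 under quantile normalization and with voom, and 1 without D1E6 replicate 1 or without D1E6 replicate 2. *Dio3*, a deiodinase of the *Dlk1*-*Dio3* locus, was at 6.32 and 7.16 FPKM in D2A7 against 1.57 and 1.93 FPKM in D1E6 and 1.17 and 1.07 FPKM in WT (1.89 ± 0.12, adjusted p = 0.000864).

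Of the called genes of cell adhesion and matrix most were higher in D2A7, as were 71.2% of all called genes. Higher in D2A7 were 4 of 9 laminins (44.4%), 5 of 17 integrins (29.4%), 5 of 16 collagens (31.2%) and 3 of 8 cadherins (37.5%), against 9.2% of all genes, and lower were *Itga9* and *Col18a1*. *Itgb5*, an integrin chain that pairs with *Itgav*, was at 37.1 and 37.0 FPKM in D2A7, at 16.31 and 16.59 FPKM in D1E6 and at 25.2 and 23.9 FPKM in WT, with no overlap between the 3 lines (1.17 ± 0.03, adjusted p = 0.000442). *Itga3*, a laminin receptor chain, was at 5.49 and 5.39 FPKM against 1.66 and 1.81 FPKM (1.60 ± 0.07), and *Lama5*, a chain of the laminins of basement membranes, at 38.5 and 43.7 FPKM against 26.3 and 24.6 FPKM (0.69 ± 0.07). *Col18a1*, a collagen of basement membranes, was at 10.8 and 12.1 FPKM in D2A7 against 30.2 and 28.9 FPKM in D1E6 and 32.5 and 27.4 FPKM in WT (−1.36 ± 0.07, adjusted p = 0.000518), so D2A7 alone was low. Many of these members are low. With a mean of at least 1 FPKM required, 2 collagens and 0 cadherins were higher, and with a pseudocount of 1 FPKM the counts of higher members were 2 laminins, 3 integrins, 0 collagens and 0 cadherins. Leaving out D2A7 replicate 1 or D2A7 replicate 2 left 3 collagens and 0 cadherins higher, voom called 9 collagens, and leaving out D1E6 replicate 2 left 2 laminins and 1 cadherin. Among heparan sulfate proteoglycans, *Sdc3* was higher in D2A7 (1.65 ± 0.08), and *Gpc3* (−1.33 ± 0.07), *Sdc1* (−0.74 ± 0.07) and *Sulf1* were lower, while the higher count was 4 by voom and 2 without D2A7 replicate 2 or without D1E6 replicate 1.

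Members of the WNT and BMP pathways differed in both directions. Of 36 genes of WNT signalling, 5 were higher in D2A7 (13.9%) and 3 lower (8.33%), and of 21 genes of BMP signalling, 6 were higher (28.6%) and 3 lower (14.3%), where 9.2% of all genes were higher and 3.73% lower. Of the 3 lower genes in each list, 1 lies on chromosome 6. *Cdx1*, a homeobox target of WNT, was at 6.66 and 5.84 FPKM in D2A7, at 1.78 and 1.79 FPKM in D1E6 and at 1.9 and 1.63 FPKM in WT (1.75 ± 0.08, adjusted p = 0.000511), so that D2A7 alone was high. *Apcdd1*, a WNT inhibitor, was at 4.74 and 4.41 FPKM against 1.58 and 1.66 FPKM, on opposite sides of WT at 2.91 and 2.62 FPKM (1.44 ± 0.07). *Sfrp1*, a secreted WNT antagonist, was at 178 and 174 FPKM against 107 and 111 FPKM (0.70 ± 0.03), and *Wnt5b* on chromosome 6, a ligand, at 1.21 and 1.12 FPKM against 3.84 and 3.47 FPKM (−1.57 ± 0.09). *Fst*, which binds and blocks activins, was at 6.70 and 6.17 FPKM against 2.65 and 2.77 FPKM (1.22 ± 0.07). The inhibitors of helix-loop-helix factors did not move together, since *Id2* was higher in D2A7 (1.17 ± 0.10), *Id3* (−0.93 ± 0.07) and *Id4* (−0.79 ± 0.04) were lower and *Id1* was at 1.32 and 1.33 FPKM against 1.51 and 1.46 FPKM (−0.16). With a pseudocount of 1 FPKM, 3 WNT and 2 BMP genes were higher and 1 WNT gene was lower, voom gave 8 higher WNT genes, and without D1E6 replicate 1 there was 1 lower WNT gene. Of 17 genes of Nodal signalling and mesendoderm, *Gsc* was higher, at 4.17 and 4.08 FPKM against 1.34 and 1.61 FPKM (1.43 ± 0.10), and *Foxh1* (−0.66 ± 0.06) and *Eomes* (−0.59 ± 0.08) were lower. *Eomes* lost the call without D2A7 replicate 1 (−0.50) and without D1E6 replicate 1 (−0.58).

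Markers of other lineages differed between the clones in several lists. For primitive endoderm, 6 of 17 tested genes were higher (35.3%, against 9.2% of all genes) and 0 lower, led by *Plat*, the tissue plasminogen activator, at 2.48 and 2.57 FPKM against 0.620 and 0.588 FPKM (1.9 ± 0.09), and *Srgn* at 2.83 and 2.37 FPKM against 0.695 and 0.721 FPKM (1.73 ± 0.12), whereas the defining factor *Gata4* was at 0.950 and 0.898 FPKM against 0.343 and 0.364 FPKM (1.17 ± 0.12). The list summed to 934 and 987 FPKM in D2A7, 813 and 808 FPKM in D1E6 and 775 and 715 FPKM in WT, most of it from *Apoe*, which mESCs also express. The higher count was 2 with a pseudocount of 1 FPKM and 3 with quantile normalization, voom called 8 higher and 1 lower, and at an unadjusted p under 0.05 14 were higher and 2 lower. Of 5 tested fibroblast genes, *Fbln2*, *Pdgfrb* and *Thy1* were higher, in a list that summed to 4.83 and 5.12 FPKM in D2A7, 2.15 and 2.04 FPKM in D1E6 and 2.82 and 2.83 FPKM in WT, but 1 was higher with a pseudocount of 1 FPKM, without chromosome 6, where *Fbln2* lies, and without D2A7 replicate 1 or D2A7 replicate 2, and voom called 5. Of 13 trophoblast genes, the keratins *Krt7*, *Krt8* and *Krt18* were higher (23.1%, against 9.2% of all genes) and *Rhox6*, *Rhox9* and *Tead4* lower (23.1%, against 3.73%). Of these lower genes, 1 lies on chromosome 6. *Krt18* was at 11.3 and 11.5 FPKM in D2A7 against 5.41 and 5.03 FPKM in D1E6 (1.11 ± 0.05), and *Rhox6* at 10.8 and 11.5 FPKM against 24.6 and 23.5 FPKM (−1.10 ± 0.05). Of 13 *Hox* genes tested, 4 were higher (30.8%), of which *Hoxc4* was at 1.21 and 1.25 FPKM against 0.428 and 0.440 FPKM (1.32 ± 0.11). That count was 2 with a pseudocount of 1 FPKM, with quantile normalization, without D2A7 replicate 2 or without D1E6 replicate 1, and 0 when genes with a mean under 1 FPKM were left out. The part of such cells in the differences between the clones was not tested.

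Among markers of neural progenitors and neurons, 5 of 19 tested genes were higher in D2A7 (26.3%, against 9.2% of all genes) and 0 lower in limma and by voom, with 11 higher and 3 lower at an unadjusted p under 0.05. The neurofilament gene *Nefl* was at 10.9 and 10.4 FPKM in D2A7, at 2.98 and 3.31 FPKM in D1E6 and at 7.76 and 7.97 FPKM in WT, with the clones on opposite sides of WT (1.73 ± 0.07, adjusted p = 0.000473), and its neighbour *Nefm*, which overlaps it, gave 1.68. *Sox1* (1.24 ± 0.13), a factor of the neural plate, *En2* (0.69 ± 0.07) and *Olig2* (0.65 ± 0.03) were the others. The list summed to 358 and 367 FPKM in D2A7, 343 and 350 FPKM in D1E6 and 426 and 393 FPKM in WT, and the count was 2 with a pseudocount of 1 FPKM and 8 without D2A7 replicate 1.

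The study lists neural genes that it chose on these libraries for a difference between WT and the 2 *Dnttip1* KO clones together, so the counts of these genes between the clones are not independent of that choice. Of the 23 tested genes of its upregulated neural list, 0 were called in either direction in limma and by voom, and 12 were higher and 1 lower at an unadjusted p under 0.05. Of the 35 of its downregulated neural list, 2 were higher in D2A7, *Alcam* and *Trpc6*, and 3 lower, among them *Nrcam* and *Nrp2*. The higher count was 0 without D2A7 replicate 1, 1 without D2A7 replicate 2, 0 with a pseudocount of 1 FPKM or a required mean of 1 FPKM, and 4 by voom. *Ncam1*, a neural adhesion molecule, was at 2.29 and 2.33 FPKM in D2A7, at 2.24 and 2.39 FPKM in D1E6 and at 5.87 and 6.08 FPKM in WT, so that the clones overlapped below WT. *Ntn1*, the ligand netrin 1, was at 15.55 and 16.27 FPKM in D2A7, at 12.2 and 12.3 FPKM in D1E6 and at 25.6 and 25.2 FPKM in WT (0.38 ± 0.04, not called). *Slit3*, a secreted guidance cue, was at 0.0689 and 0.0650 FPKM against 0.0272 and 0.0183 FPKM, below the level tested, beside 0.643 and 0.491 FPKM in WT. *Nrp2*, a semaphorin receptor, was at 1.02 and 0.937 FPKM in D2A7, at 2.21 and 2.44 FPKM in D1E6 and at 5.40 and 5.28 FPKM in WT, so both clones lay below WT and D2A7 below D1E6 (−1.16 ± 0.10, adjusted p = 0.00162). *Alcam*, another adhesion molecule, had the opposite order, with 0.447 and 0.430 FPKM in D2A7, 0.0985 and 0.140 FPKM in D1E6 and 1.11 and 1.26 FPKM in WT (1.30 ± 0.18, adjusted p = 0.00637). Over the whole lists of the study, 9 of 367 upregulated genes were higher in D2A7 (2.45%) and 1 lower, and 33 of 460 downregulated genes were higher (7.17%) and 22 lower (4.78%). The last list gave 19 higher and 45 lower genes with quantile normalization, 45 higher and 41 lower by voom and 19 higher without D2A7 replicate 1, the upregulated list 3 lower genes without D2A7 replicate 2, and these lists too were chosen by the study on these libraries.

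Genes of the cell cycle and of core cell functions differed mostly by less than the fold threshold. Of 44 cell cycle genes, 5 were lower in D2A7 (11.4%, against 3.73% of all genes) and 0 higher in limma, and 6 lower and 0 higher by voom. At an unadjusted p under 0.05, 25 were lower and 7 higher, where 21.9% and 28.9% of all genes were, and the median was −0.18. *Ccne1*, the cyclin of entry into DNA synthesis, was at 20.2 and 20.3 FPKM in D2A7 against 37.2 and 35.2 FPKM in D1E6 and 30.95 and 30.01 FPKM in WT (−0.83 ± 0.04, adjusted p = 0.000511), and *Mad2l1* of the spindle checkpoint, on chromosome 6, at 47.6 and 48.9 FPKM against 92.4 and 96.0 FPKM (−0.96 ± 0.03). *Mad2l1* lost the call when the genes of chromosome 6 were centred. The 69 tested histone genes that are tied to DNA replication had a median of −0.33, and 59 of them were lower at an unadjusted p under 0.05, but 2 passed the fold threshold in this direction (4 without D2A7 replicate 2, 5 without D1E6 replicate 2, 1 without D1E6 replicate 1). *Hist4h4*, 1 of the 2 histone genes that passed, lies on chromosome 6 and lost the call once that chromosome was centred (−0.35). Of 83 ribosomal protein genes, the testis-type paralogues *Rpl39l*, at 14.7 and 12.6 FPKM against 3.30 and 3.66 FPKM (1.94 ± 0.10), and *Rpl10l*, at 27.1 and 24.9 FPKM against 10.2 and 9.63 FPKM (1.38 ± 0.06), were the 2 called, both on opposite sides of WT in the 2 clones.

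The Y-linked genes were higher in D2A7 where called. Of 7 tested Y-linked genes, 4 were higher in D2A7 (57.1%), with *Eif2s3y* at 13.2 and 13.1 FPKM in D2A7, 6.31 and 7.04 FPKM in D1E6 and 6.66 and 5.77 FPKM in WT (0.97 ± 0.06, adjusted p = 0.000833), and *Ddx3y* at 18.9 and 18.3 FPKM, 11.5 and 11.6 FPKM, and 17.1 and 18 FPKM in D2A7, D1E6 and WT (0.69 ± 0.03). Both clones thus expressed the Y chromosome. Of 18 interferon response genes, 5 were higher (27.8%, against 9.2% of all genes) and 2 lower (11.1%, against 3.73%). *Oas1a* led the higher ones at 8.57 and 8.59 FPKM against 2.68 and 3.03 FPKM (1.56 ± 0.07), and *Bst2* was lower at 71.0 and 76.1 FPKM against 152 and 139 FPKM (−0.98 ± 0.06). Without D2A7 replicate 1 or D2A7 replicate 2, or with a pseudocount of 1 FPKM, 3 were higher. Of 27 p53 targets, 4 were higher (14.8%) and 1 lower (3.70%, near the 3.73% of all genes), and the kinase gene *Plk2* was at 18.7 and 18.5 FPKM against 8.0 and 8.16 FPKM (1.19 ± 0.03). The lower count was 0 without D2A7 replicate 2 or without D1E6 replicate 1. Of 32 genes of glycolysis and the response to hypoxia, 3 were higher (9.38%, near the 9.2% of all genes) and 3 lower (9.38%, against 3.73%), with 1 of each on chromosome 6. *Vegfa*, the growth factor of blood vessels, was at 6.75 and 7.35 FPKM in D2A7 against 2.42 and 2.45 FPKM in D1E6 and 2.91 and 2.93 FPKM in WT (1.49 ± 0.06). *Pdk1*, a kinase that limits the entry of pyruvate into mitochondria, was at 3.89 and 4.04 FPKM against 9.42 and 9.25 FPKM (−1.21 ± 0.05). In the Hedgehog list, the receptor *Smo*, on chromosome 6 (−1.05 ± 0.07), and the effector *Gli1* (−0.85 ± 0.07) were the 2 lower of 12 genes, with 0 higher in limma and by voom, and 1 higher and 5 lower at an unadjusted p under 0.05. *Smo* stood at −0.58 and was not called once the genes of chromosome 6 were centred, and quantile normalization gave 4 lower genes.

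The counts of the remaining lists were small, and most moved when 1 library was left out. Of all genes tested, 9.2% were higher and 3.73% lower. Of the 4 lower genes among the semaphorins, plexins and neuropilins below, 2 lie on chromosome 6, and the count was 2 once that chromosome was centred. Of 25 genes of SLIT, NETRIN and ephrin signalling 3 were higher in D2A7 (12%) and 2 lower (8%), both of the latter on chromosome 6. The 3 became 0 without D2A7 replicate 1 or without D2A7 replicate 2, 1 without D1E6 replicate 1 or without D1E6 replicate 2, and 0 with a pseudocount of 1 FPKM, and the 2 became 4 without D1E6 replicate 2. Of 22 semaphorins, plexins and neuropilins 2 were higher (9.09%) and 4 lower (18.2%). There was 1 higher without D2A7 replicate 1 or without D2A7 replicate 2, and there were 2 lower without D2A7 replicate 1. Of 14 neural adhesion molecules 3 were higher (21.4%) and 4 lower (28.6%), 1 of the latter on chromosome 6. There was 1 higher without D2A7 replicate 2, there were 2 lower without D2A7 replicate 1, and 0 were higher and 1 lower with a pseudocount of 1 FPKM. Of 26 synaptic genes 2 were higher (7.69%) and 2 lower (7.69%), with 1 higher without D2A7 replicate 1. Of 16 genes of the Notch pathway, *Mfng*, which adds sugars to Notch receptors, was the 1 called, at 3.59 and 3.22 FPKM in D2A7 against 0.930 and 1.03 FPKM in D1E6 (1.70 ± 0.10), and 1 gene was lower by voom and without D2A7 replicate 2. Of 17 FGF ligands and receptors, *Klb* (2.24) and *Fgf3* (0.79) were higher, 11.8% of the list, and *Fgfbp1* (−0.88) was lower, 5.88%. There was 1 higher without D2A7 replicate 1 or without D2A7 replicate 2, and there were 2 lower without D2A7 replicate 2.

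Of 34 genes of lipid synthesis 1 was higher (2.94%) and 2 lower (5.88%). Of 26 stress response genes 4 were higher (15.4%), and the count was 2 without D2A7 replicate 2. Of 82 nuclear genes of the respiratory chain 1 was higher, 2 without D1E6 replicate 2, and 2 were lower, both on chromosome 6 and not called once it was centred. Of 85 small nucleolar and Cajal body RNAs 5 were higher and 1 lower, with 8 higher without D1E6 replicate 1, 9 higher without D1E6 replicate 2, 2 higher by voom, and 2 or 3 lower without any 1 library. The lower one, *Snora7a*, lies on chromosome 6 and was not called once that chromosome was centred (−0.23). None of 13 mitochondrially encoded genes was called in limma or by voom, and 3 were higher and 0 lower at an unadjusted p under 0.05. Of 8 abundant non-coding RNAs none was called in limma or by voom and 4 were higher at that p, with 2 called higher without D2A7 replicate 1, 1 higher without D1E6 replicate 2 and 1 lower without D1E6 replicate 1. The same tests called none of 2 clustered protocadherins, of which 1 was lower at that p. Of 17 genes of the 2-cell-like state in the table, 15 were too low to be tested, and the 2 tested were *Pramel6* and *Pramel7*.

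The *Elmsan1* KO clones E2E8 and E2G7 were compared in the same way, which gave 1752 genes higher in E2E8 (10.5% of 16723 tested) and 547 lower (3.27%). Whether the 2 pairs of clones differ in these numbers was not tested. *Spry4* was at 0.501 and 0.454 FPKM in E2E8 and at 1.86 and 1.97 FPKM in E2G7, and *Otx2* at 0.738 and 0.765 FPKM and 3.04 and 2.90 FPKM. *Pramel6* was at 0.220 and 0.149 FPKM in E2E8 and at 1.03 and 1.05 FPKM in E2G7, *Cd3g* at 0.172 and 0.179 FPKM and 0.453 and 0.411 FPKM, and *Slc38a4* at 7.5 and 7.35 FPKM and 2.24 and 1.89 FPKM. The levels of *Pramel6* and *Cd3g* in D2A7 were above those of every other library of the set.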

How the data were processed

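The 10 RNA-seq libraries came as 1 table of FPKM for 34591 genes. The authors aligned the reads to NCBIM37 (mm9), counted them per gene with HTSeq and deposited FPKM computed from those counts. Their own tests used edgeR 3.16.5 and limma in R 3.3.1, per the submitters' processing notes and the study's methods. Samples were grouped by clone as the labels name them, and 0 columns of the table were left unmapped. The members compared, the gene lists and the rules were chosen with earlier results of these data known.

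Libraries were scaled by median ratios over the 11270 genes that reached 1 FPKM in every library. The test, limma 3.58.1 in R 4.3.3, was run on log2(FPKM + 0.1) of the genes that reached 0.1 FPKM in 2 or more libraries of the comparison (two-sided, variance trend, Benjamini-Hochberg adjustment over all genes tested), with only the libraries of the comparison in the fit. All fold changes and log2 differences are on this scale, which understates those of low genes. Errors are standard errors of the log2 difference. FPKM multiplied by exon length (GENCODE vM1, matched by 97.2% of genes, 985 unmatched) were whole multiples of 1 step, within a tolerance of 0.02, for 98.1% to 98.4% of values under 100 steps, which gave the fragments per library. These were used for depth and for voom as an alternative, which called 1794 genes higher and 783 lower. Since the study states GENCODE vM20 as its annotation, exon lengths may be approximate for some genes. Fragment totals cover counting error only.

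Genes were named by rule: the MiDAC subunits, the 12 called genes with the largest log2 difference in each direction (mean of at least 1 FPKM, no overlap between the clones), up to 3 called members of each of 47 lists (mean of at least 0.5 FPKM) and 12 genes that the study names. Further members, given to complete a count or to show a gene that was not called, were named after their values were seen. The fits were tested on simulated data. The alternatives were a pseudocount of 1 or 0.01, a required mean of 1 FPKM, the absence of any filter, the deposited FPKM without rescaling, quantile normalization, a fit without the variance trend, a single fit of all 10 libraries, a block on the replicate number, voom, each library left out, and, chosen after seeing the data, the removal and the centring of chromosome 6. The RefSeq promoter table is not complete, and *Spry4*, *Etv4* and *Khdc1c* had no promoter entry used here. Some genes that meet the naming rule or complete a count are not reported here. Figures were drawn with matplotlib 3.10.9 in Python 3.11.15.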

Additional observations from a re-analysis of the deposited data

Results flagged for a closer look

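In 10 named genes the clones lay on opposite sides of WT, with D2A7 called in one direction against WT and D1E6 called in the other, and the difference between the clones itself passed the test. Higher in D2A7 and lower in D1E6 than in WT were *Fbp2* (log2 difference between the clones 2.79), *Ffar2* (2.75), *Rpl39l* (1.94), *Sdc3* (1.65), *Dazl* (1.60), *Apcdd1* (1.44) and *Rpl10l* (1.38). Lower in D2A7 and higher in D1E6 than in WT were *Wdr86* (−1.66), *Adam23* (−1.55) and *2810011L19Rik* (−1.53). *Fbp2*, a fructose bisphosphatase of muscle, was at 6.48 and 5.71 FPKM in D2A7, at 0.732 and 0.860 FPKM in D1E6 and at 1.79 and 1.54 FPKM in WT. *Sdc3*, a syndecan of neural cells, was at 2.84 and 2.88 FPKM in D2A7, at 0.878 and 0.809 FPKM in D1E6 and at 1.36 and 1.42 FPKM in WT. *Adam23*, a membrane protein of the ADAM family, was at 0.629 and 0.781 FPKM in D2A7, at 2.29 and 2.22 FPKM in D1E6 and at 1.22 and 1.13 FPKM in WT. Both comparisons with WT use the same 2 WT libraries. No group had 4 libraries, so single libraries could not be tested as outliers.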

How the results depend on the processing

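With 2 libraries per clone and 1 line per clone, these values describe the 2 lines. Of 141 named genes tested between the clones, none changed direction where called, and 83 of their values under the alternatives lost the call. A pseudocount of 1 FPKM cut the counts to 726 higher and 310 lower between the clones, 864 and 433 in D2A7 against WT, 349 and 412 in D1E6 against WT, and 616 and 230 in E2E8 against E2G7. Restriction to a mean of at least 1 FPKM gave 903 higher, quantile normalization 956 lower, and removal of chromosome 6 422 lower genes (78.3% of called genes higher). The median of chromosome 6 was −0.52 at a minimum of 5 FPKM. Fewer genes entered under the stricter minimum and without chromosome 6, a larger pseudocount shrinks the differences of low genes by construction, and the cause of the other shifts was not tested. Leaving out each library in turn gave 1124 to 1460 higher and 512 to 656 lower genes between the clones (63.1% higher without D2A7 replicate 2), 1013 to 1799 higher and 667 to 746 lower in D2A7 against WT (1090 higher without D2A7 replicate 1 and 1013 without D2A7 replicate 2), 479 to 890 higher and 671 to 729 lower in D1E6 against WT (479 higher without D1E6 replicate 1), and 1270 to 1539 higher and 395 to 530 lower in E2E8 against E2G7. In these fits the lone library of a clone was assumed to vary like the other clone.

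Nothing in the labels says that equal replicate numbers pair the libraries, and the replicate differences of the clones correlated at 0.0649 across genes. With the replicate block, 1521 genes were higher and 621 lower, of which 1445 and 590 were also called without it, and *Hist1h1t* was the only named gene to lose its call.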
